A study of Mus musculus with 28 samples.

Results

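The comparison is between 3 libraries of APOE3 microglia given tau and 3 libraries of APOE3 microglia given amyloid. They were chosen by title and treatment label, within the one naming series of the library titles (the SAN titles) that holds amyloid libraries, and make up 6 of the 28 libraries of the series. All 6 hold RNA of cultured primary mouse microglia with the genotype label WT, which stands for APOE3. The other groups used here are 3 untreated APOE3 libraries (treatment label Control) and, of the APOE3S/S genotype (labelled Christchurch, a substitution in APOE that is known for its link to resistance against Alzheimer's disease), 2 untreated, 3 amyloid and 3 tau libraries of the same titles. Titles number the untreated libraries 1 to 3, the tau libraries 4 to 6 and the amyloid libraries 7 to 9, and these numbers are used as names below. The labels name the agents only as tau and amyloid. They state no form, dose, time or vehicle, no age of the mice, and no origin of the libraries of a group from separate cultures. The p-values therefore measure only the spread among the libraries, which may be technical. A difference between the groups is a difference between these 2 preparations as given, at amounts that cannot be matched here.

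Microglia are the macrophages of the brain, and they meet both of the protein deposits of Alzheimer's disease, amyloid plaques outside cells and tau released from neurons. Their receptors for microbial and aggregated material signal mainly through NF-kB, which drives cytokine and chemokine genes, and through interferon regulatory factors, which drive type I interferon and with it a large set of antiviral genes. Cytosolic DNA is sensed by the enzyme cGAS, which signals through STING to the second of these branches, and the series' title names that branch. Inflamed macrophages are also known to turn to glycolysis, to raise the antioxidant genes of the factor NRF2, and to lower the genes that mark resting microglia.

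The 6 libraries held 15.5 to 18.7 M counts (mean 17.3, SD 1.32) over 18560 to 19580 genes with at least 1 count, with 1.28 to 1.63% of counts in mitochondrial transcripts. Pairs of libraries within the amyloid group differed by 4.32 to 7.99 times their counting variance and pairs of tau libraries by 9.20 to 15.2 times, against 25.4 to 51.8 times among the untreated libraries and up to 73.8 times among the APOE3S/S libraries. No library was a repeat of another. Levels are given as CPM, a library's counts scaled to 1e6 of its TMM-adjusted total. Of 12 general markers of microglia and macrophages all were above 0 in all 9 APOE3 libraries, with a summed level of 4132 to 4218 CPM with amyloid and 4705 to 4770 CPM with tau. Of the genes that set microglia apart from other macrophages, P2ry12 was at 23.5 to 27.8 CPM in the 6 libraries, Tmem119 at 1.60 to 5.88 CPM and Siglech at 0 with amyloid. Markers of other cells were present at various levels. The 12 astrocyte markers summed to 71.3 to 114.5 CPM with amyloid and 77.1 to 90.6 CPM with tau. The 12 neuron markers summed to 1.60 to 5.26 and 0.999 to 2.26 CPM, and 11 of them were under 1 CPM in all 9 libraries. The sums were 11.6 to 16.2 and 18.3 to 25.5 CPM for 15 granulocyte and lymphocyte markers (7 at 0 in all 9). The 15 oligodendrocyte lineage markers summed to 220.6 to 230.5 CPM with amyloid and 236 to 254 CPM with tau, most of it from Mbp and Cnp. The 14 fibroblast, mural and endothelial markers summed to 1902 to 2102 and 1457 to 1640 CPM, nearly all of it from Fn1, which macrophages also make. Without Fn1 these sums were 15.6 to 81.0 and 15.0 to 60.1 CPM. Border-associated macrophage and monocyte markers summed to 1235 to 1315 CPM with amyloid and 1332 to 1517 CPM with tau, and to 689 to 780.2 and 818 to 927 CPM without Pf4. The part that differences in these marker sums have in the results was not tested. In bulk RNA fewer cells of a type and less RNA per cell cannot be told apart.

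Tau-treated and amyloid-treated APOE3 microglia differed in inflammatory, antioxidant, glycolytic and homeostatic genes. Of 14136 genes tested, 581 (4.11%) were higher and 453 (3.2%) lower with tau than with amyloid at an adjusted p under 0.05 in edgeR's quasi-likelihood test, and 386 of these differed by more than 2-fold. The median log2 fold change over all genes tested was -0.004. The shares of 4.11 and 3.2% are the background for each list count below. Against untreated cells, tau raised 1815 genes (12.8%) and lowered 1244 (8.8%), while amyloid raised 99 (0.7%) and lowered 19 (0.134%). The same 3 untreated libraries serve both of these comparisons, which are given side by side for each gene group below. The amyloid count moved with the fit: it was 653 with DESeq2 and 930 in a fit of the 9 APOE3 libraries. Of the 6 libraries behind it, leaving out untreated library 2 gave 62 calls, and leaving out any other 1 gave 0. Amyloid calls against untreated cells given below are those of the fit of all 17 libraries. Every tau library lay above every amyloid library for 3037 genes (21.5%), and every tau library lay below every amyloid library for 2787 (19.7%).

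**Figure D1:**
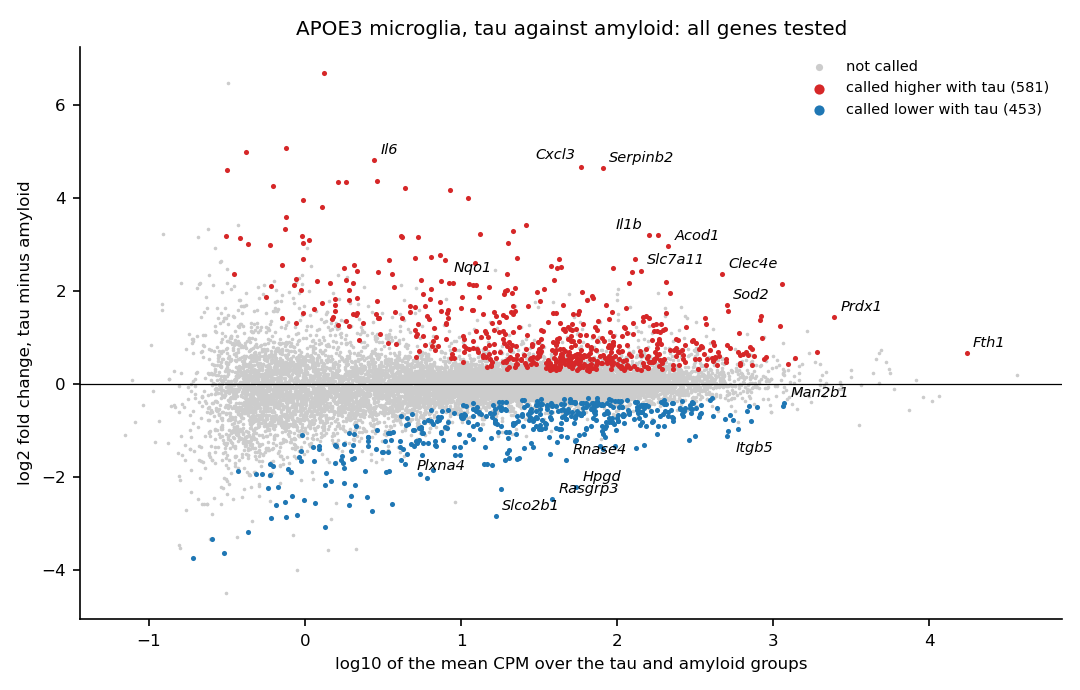
Each point is 1 of the 14136 genes tested. The x axis is the log10 of the mean CPM over the tau and amyloid groups and the y axis the fitted log2 fold change of tau over amyloid, with the 581 genes called higher in red and the 453 called lower in blue. The higher calls reach further from 0 than the lower ones among genes above 5 CPM, where Cxcl3 stands at 4.67 and Slco2b1 at -2.84.

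Among called genes that averaged 5 CPM or more, the 12 with the highest fold changes were Cxcl3, Serpinb2, Traf1, Tarm1, Slc6a12, Lcn2, Car4, Il1b, H2-M2, Upp1, Ccl7 and Acod1, with log2 fold changes from 2.97 to 4.67. They include a neutrophil chemokine (Cxcl3), a monocyte chemokine (Ccl7), an adaptor of TNF receptors (Traf1), a plasminogen activator inhibitor (Serpinb2), an iron-binding siderophore trap (Lcn2) and the itaconate-making enzyme Acod1. In all 12 the 3 tau libraries lay above the 3 amyloid libraries, as in 21.5% of all genes tested. The 12 were picked by the fold change between these same libraries, so the gap is no further support. Serpinb2 was at 7.14, 7.69 and 3.76 CPM with amyloid and at 98.4, 159 and 210.5 CPM with tau (4.64 ± 1.04, adjusted p = 0.0191). H2-M2, an MHC class I-like gene, was at 31.5, 41.1 and 34.8 CPM with amyloid and 270.5, 323 and 389 CPM with tau (3.19 ± 0.74, adjusted p = 0.0216). Slc6a12, a betaine and GABA transporter, was at 3.92, 4.95 and 4.50 CPM with amyloid, close to the 4.33, 2.17 and 5.19 CPM of untreated cells, and at 36.5, 52.4 and 53.4 CPM with tau (3.41 ± 0.54, adjusted p = 0.00539). For this transporter the amyloid libraries could not be separated from the untreated ones (amyloid minus untreated 0.19 ± 0.59), so the gap is between tau and both other groups. Tarm1, an activating receptor of myeloid cells, rose from 1.31 ± 0.464 to 21.0 ± 5.20 CPM (SD, n = 3; 4.00 ± 0.81, adjusted p = 0.0128). Upp1, which breaks down uridine, rose from 1.07 ± 0.505 to 9.50 ± 1.12 CPM (3.15 ± 0.57, adjusted p = 0.00897).

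The 12 lowest were Slco2b1, Rasgrp3, Mamdc2, Hpgd, Pde1c, Rtn4rl1, Gpr34, Adamts1, Plxna4, Fat3, Dkk2 and Rnase4, from -2.84 to -1.63. Slco2b1 (chr7:99657804-99711340 of GRCm38), an organic anion transporter that marks microglia, was at 76.1, 81.7 and 25.5 CPM in untreated cells, 24.0, 29.8 and 34.0 CPM with amyloid and 4.53, 4.51 and 3.13 CPM with tau. Every tau library was below every library of the other 2 groups, by 7.17-fold against amyloid (-2.84 ± 0.53, adjusted p = 0.00991). Rasgrp3, a Ras activator, was at 78.3, 49.5 and 66.7 CPM with amyloid and 14.9, 10.8 and 9.13 CPM with tau (-2.48 ± 0.49, adjusted p = 0.0126). Hpgd, which inactivates prostaglandin E2, was at 105, 84.2 and 80.9 and 20.8, 19.7 and 17.8 CPM (-2.21 ± 0.51, adjusted p = 0.0207). Plxna4, a semaphorin receptor, was at 22.2, 22.7 and 23.3 CPM with amyloid and 8.49, 6.66 and 5.40 CPM with tau (-1.72 ± 0.26, adjusted p = 0.00443). Fat3, a giant cadherin, was at 21.8, 19.1 and 23.2 and 8.71, 5.53 and 5.26 CPM (-1.71 ± 0.33, adjusted p = 0.0107). In these last 2 genes amyloid and untreated cells had similar levels (amyloid minus untreated -0.04 ± 0.24 for Plxna4 and 0.09 ± 0.31 for Fat3). Of the 12, the amyloid minus untreated difference was called for none, while the tau minus untreated difference was called for all.

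Cytokine genes were among the groups that differed most. Of 20 tested members of the cytokine list (25 listed), 10 were higher with tau and none lower, against 4.11 and 3.2% of all genes, and the median log2 fold change was 1.355. With tau 14 were higher than in untreated cells (median 1.866), and with amyloid none was called (median 0.373). The members called higher were Il1a, Il1b, Il1rn, Il6, Il12b, Il27, Tnf, Tnfsf9, Tnfsf15 and Csf3. Il1b (chr2:129364570-129371139), the inflammasome-processed interleukin, was at 16.4, 20.6 and 22.0 CPM in untreated libraries, 32.1, 39.4 and 22.4 CPM with amyloid and 189.7, 302 and 371 CPM with tau. Every tau library was above every amyloid library, and the fitted difference was 9.16-fold (3.20 ± 0.42, adjusted p = 0.00286). Its relative Il1a, released by damaged cells, was at 26.9, 30.7 and 30.9 CPM with amyloid and 82.2, 110.2 and 136 CPM with tau (1.89 ± 0.29, adjusted p = 0.00443). Il1rn, the secreted antagonist of both, rose as well, from 42.5, 46.8 and 40.4 to 159, 211 and 218 CPM (2.18 ± 0.39, adjusted p = 0.00847). Ligands and antagonist were thus higher together. Il6 was nearly silent without tau, with 1 to 4 counts in each untreated and amyloid library and 45, 88 and 129 counts in the tau libraries (2.55, 4.97 and 8.59 CPM; 4.80 ± 0.62, adjusted p = 0.00286). Tnf, the first-line macrophage cytokine, was at 29.0, 20.3 and 25.6 CPM with amyloid and 52.4, 59.5 and 72.5 CPM with tau (1.30 ± 0.33, adjusted p = 0.0296). Il12b, a subunit of interleukins that drive T cells, was at 0.268, 0.258 and 0.246 CPM with amyloid and 4.19, 4.85 and 7.46 CPM with tau (4.37 ± 1.02, adjusted p = 0.024). Members that did not pass included Il18 (0.41 ± 0.22, adjusted p = 0.269), Tgfb1 (0.06 ± 0.10, adjusted p = 0.81) and Osm (0.01 ± 0.24, adjusted p = 0.985). Without 1 of the 6 libraries, 4 to 7 members were called higher (median 1.166 to 1.435). Il1a, Il1b, Il1rn and Il6 kept their calls without any 1 of them.

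Of 26 tested chemokines and chemokine receptors, 12 were higher with tau, 1 was lower (Cxcl14) and the median was 0.924. The median was 1.213 for tau and 0.172 for amyloid against untreated cells, where 14 and 0 members were called higher. Both neutrophil-attracting CXC chemokines and monocyte-attracting CC chemokines were among the 12, which were Ccl2, Ccl5, Ccl7, Ccl9, Ccl12, Cxcl1, Cxcl2, Cxcl3, Cxcl5, Cxcl9, Cxcl10 and the decoy receptor Ccrl2. Of these, Cxcl5 was near the floor, under 1 CPM in all 9 APOE3 libraries. Cxcl3 was at 4.22, 4.53 and 13.8 CPM in untreated cells, 3.60, 5.21 and 4.50 CPM with amyloid and 67.6, 112 and 159 CPM with tau (4.67 ± 0.82, adjusted p = 0.00768), and kept its call without any 1 library. Its neighbour Cxcl2 was at 15.6, 12.7 and 13.3 CPM with amyloid and 43.2, 62.7 and 89.7 CPM with tau (2.23 ± 0.42, adjusted p = 0.00991). For both, amyloid cells were at the level of untreated cells or near it, and the tau libraries stood apart. Ccl2, the main monocyte attractant, was at 5.31, 7.54 and 5.36 and 26.4, 43.8 and 49.0 CPM (2.70 ± 0.56, adjusted p = 0.0134). Cxcl10, an interferon-induced attractant of T cells, differed in steps, from 1.43, 1.51 and 2.66 CPM in untreated cells to 11.9, 11.4 and 14.2 CPM with amyloid and 62.0, 74.3 and 74.1 CPM with tau (2.49 ± 0.66, adjusted p = 0.0342). Ccl3 (0.39 ± 0.14, adjusted p = 0.0995) and Ccl4 (0.58 ± 0.22, adjusted p = 0.119) did not pass the test. Leaving out 1 library left 1 to 9 members called higher, with a median of 0.828 to 1.151.

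Because cytokine, chemokine and feedback genes were higher together, their promoters (250 bases before to 50 after the start site, from RefSeq on GRCm38.p6) were searched on both strands for the 10-letter NF-kB consensus and for the core of the interferon response element, GAAANNGAA. Of the 12 named genes of the cytokine, chemokine and interferon lists, 10 had a promoter entry. The 4 printed are those with the smallest p that hold a match, with the match in capitals, read 5′ to 3′ on the gene's strand. Il6 lies at chr5:30012864-30013163 (plus strand), Cxcl3 at chr5:90785851-90786150 (plus), Cxcl2 at chr5:90903649-90903948 (plus) and Socs1 at chr16:10785487-10785786 (minus). The capitals are NF-kB matches in the first 3 genes, on both strands in overlap for Cxcl3 and Cxcl2, and 2 overlapping matches to the interferon core in Socs1, a feedback inhibitor of interferon and cytokine signalling.
Il6: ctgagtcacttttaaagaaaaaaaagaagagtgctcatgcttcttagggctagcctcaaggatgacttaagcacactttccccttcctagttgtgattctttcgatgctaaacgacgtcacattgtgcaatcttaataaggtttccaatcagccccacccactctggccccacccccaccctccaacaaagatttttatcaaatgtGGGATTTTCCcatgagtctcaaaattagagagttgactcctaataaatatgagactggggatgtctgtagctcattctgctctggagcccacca
Cxcl3: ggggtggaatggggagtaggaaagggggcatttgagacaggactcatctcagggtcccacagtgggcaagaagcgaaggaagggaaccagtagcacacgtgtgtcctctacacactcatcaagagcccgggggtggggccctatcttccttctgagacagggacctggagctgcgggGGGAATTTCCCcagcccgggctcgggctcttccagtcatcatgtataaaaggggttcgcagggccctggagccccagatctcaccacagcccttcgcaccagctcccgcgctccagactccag
Cxcl2: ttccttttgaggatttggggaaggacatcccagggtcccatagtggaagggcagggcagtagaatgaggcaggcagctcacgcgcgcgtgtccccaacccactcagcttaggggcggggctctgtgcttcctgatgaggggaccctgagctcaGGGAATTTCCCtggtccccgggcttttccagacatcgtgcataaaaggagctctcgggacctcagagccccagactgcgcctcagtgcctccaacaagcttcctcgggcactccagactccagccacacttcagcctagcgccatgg
Socs1: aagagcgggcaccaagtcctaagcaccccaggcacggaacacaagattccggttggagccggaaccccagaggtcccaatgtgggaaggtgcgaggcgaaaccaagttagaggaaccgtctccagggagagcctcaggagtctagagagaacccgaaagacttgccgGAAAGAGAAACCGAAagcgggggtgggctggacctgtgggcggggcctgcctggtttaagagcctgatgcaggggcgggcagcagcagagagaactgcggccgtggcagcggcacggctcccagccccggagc
The Il6 match begins 44 bases before the start site, that of Cxcl3 73 bases, that of Cxcl2 97 bases and the first in Socs1 83 bases before it. The NF-kB consensus was found in 16.7% of the 443 genes called higher with tau that have a promoter entry, in 13.0% of 338 called lower and in 12.2% of 10079 tested, and in 9.55% of all 27025 genes with an entry. Among tested members it was found in 10 of 17 genes of the NF-kB list (58.8%), 7 of 17 chemokine genes (41.2%) and 5 of 14 cytokine genes (35.7%). The interferon core was in 30 of 53 interferon-stimulated genes (56.6%), in 10.6% of the genes called higher, 9.76% of those called lower and 9.04% of those tested, and in no cytokine promoter of 14. These shares describe the letters in the window and nothing more.

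Members of the NF-kB pathway were higher with tau as well. Of 24 tested subunits, inhibitors and targets, 14 were higher with tau and none lower (median 0.635), while the medians against untreated cells were 1.148 with tau (19 called higher) and 0.501 with amyloid (none called). The alternative pathway subunits Nfkb2 and Relb were higher (0.77 ± 0.17, adjusted p = 0.0201, and 0.68 ± 0.17, adjusted p = 0.03). The canonical subunits Rela and Nfkb1 did not pass (0.18 ± 0.08, adjusted p = 0.208, and 0.23 ± 0.10, adjusted p = 0.166). Inhibitors of the pathway were among those that rose: Nfkbie, which holds NF-kB in the cytoplasm, was at 42.1, 40.6 and 39.7 CPM with amyloid and 79.6, 79.9 and 96.1 CPM with tau (1.06 ± 0.21, adjusted p = 0.0128). Sod2, the mitochondrial superoxide dismutase and a target of the pathway, was at 123, 131 and 140.3 CPM in untreated cells, 235, 239 and 242 CPM with amyloid and 714, 732 and 873 CPM with tau (1.70 ± 0.34, adjusted p = 0.0128). Birc3, an inhibitor of cell death, was at 68.9, 70.4 and 72.3 and 137, 141 and 152 CPM (1.02 ± 0.19, adjusted p = 0.00986). The groups of all 3 genes were ordered untreated, amyloid, tau with no overlap. Leaving out 1 library left 0 to 11 members called (0 without tau library 6), with a median of 0.576 to 0.673.

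Of 25 tested Toll-like receptors, adaptors and inflammasome genes, 7 were higher with tau (Tlr2, Cd14, Myd88, Irak3, Nlrp3, Casp1 and Casp4), none was lower and the median was 0.091. The share called higher over all genes was 4.11%. Leaving out 1 library left 0 to 4 members called higher, with 0 without amyloid library 8, amyloid library 9, tau library 5 or tau library 6. Tlr2, the receptor for lipoproteins, was at 492, 476 and 481 CPM with amyloid and 755, 671 and 797 CPM with tau (0.62 ± 0.15, adjusted p = 0.0253). It was also called for amyloid against untreated cells (0.68 ± 0.15, adjusted p = 0.0485). Its co-receptor Cd14 had overlapping untreated and amyloid levels, with 378, 346 and 322 CPM in untreated cells, 345, 321 and 241 CPM with amyloid and 483, 504 and 625 CPM with tau (0.83 ± 0.19, adjusted p = 0.0213). Nlrp3, the inflammasome sensor, was at 62.8, 60.1 and 61.7 and 90.0, 86.7 and 104 CPM (0.61 ± 0.16, adjusted p = 0.0362), while Tlr4, the endotoxin receptor, did not pass (0.41 ± 0.19, adjusted p = 0.209).

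Enzymes that make inflammatory small molecules were higher with tau in 5 of 14 members of the itaconate, arginine, tryptophan and biopterin list, with none lower (median 0.715). Acod1 was at 8.61, 6.24 and 22.6 CPM in untreated cells, 48.0, 50.9 and 46.1 CPM with amyloid and 309, 368 and 457 CPM with tau (2.97 ± 0.78, adjusted p = 0.0342). Ido2, which breaks down tryptophan, was at 0.537, 0.413 and 0.308 CPM with amyloid and 1.47, 2.14 and 2.33 CPM with tau (2.21 ± 0.45, adjusted p = 0.0132). Nos2, the inducible nitric oxide synthase, was at 0.215, 0.671 and 0.431 CPM with amyloid and 4.81, 10.3 and 9.72 CPM with tau (4.20 ± 1.05, adjusted p = 0.0279). Its cofactor enzyme Gch1 was at 46.5, 46.6 and 44.1 and 87.0, 101 and 119 CPM (1.16 ± 0.25, adjusted p = 0.0157). In all 3 the tau libraries lay above every amyloid and untreated library. Arg2, the mitochondrial arginase, was at 13.8, 15.1 and 11.6 CPM with amyloid, as in untreated cells, and 25.6, 27.8 and 34.6 CPM with tau (1.12 ± 0.18, adjusted p = 0.00539). Its cytosolic relative Arg1 did not pass (209 ± 27.3 and 213 ± 28.0 CPM, SD, n = 3; 0.02 ± 0.29, adjusted p = 0.976). In the prostaglandin pathway 3 of 16 members were higher (Pla2g4a, Ptges, Ptgir) and 2 lower (Hpgd, Hpgds), with a median of 0.085. The shares over all genes were 4.11 and 3.2%. Pla2g4a releases arachidonic acid (0.60 ± 0.13, adjusted p = 0.0159). Ptges makes prostaglandin E2, which Hpgd breaks down, and was at 30.0, 29.8 and 25.6 CPM with amyloid and 137, 141 and 201 CPM with tau (2.49 ± 0.60, adjusted p = 0.0245). Hpgds, which makes prostaglandin D2, was at 143, 131 and 152 and 88.0, 77.0 and 71.6 CPM (-0.85 ± 0.17, adjusted p = 0.0128). Ptgs2, the inducible cyclooxygenase, was at 5.37, 7.23 and 2.46 CPM with amyloid and 17.8, 31.9 and 33.7 CPM with tau and did not pass (2.45 ± 0.76, adjusted p = 0.059).

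**Figure D2:**
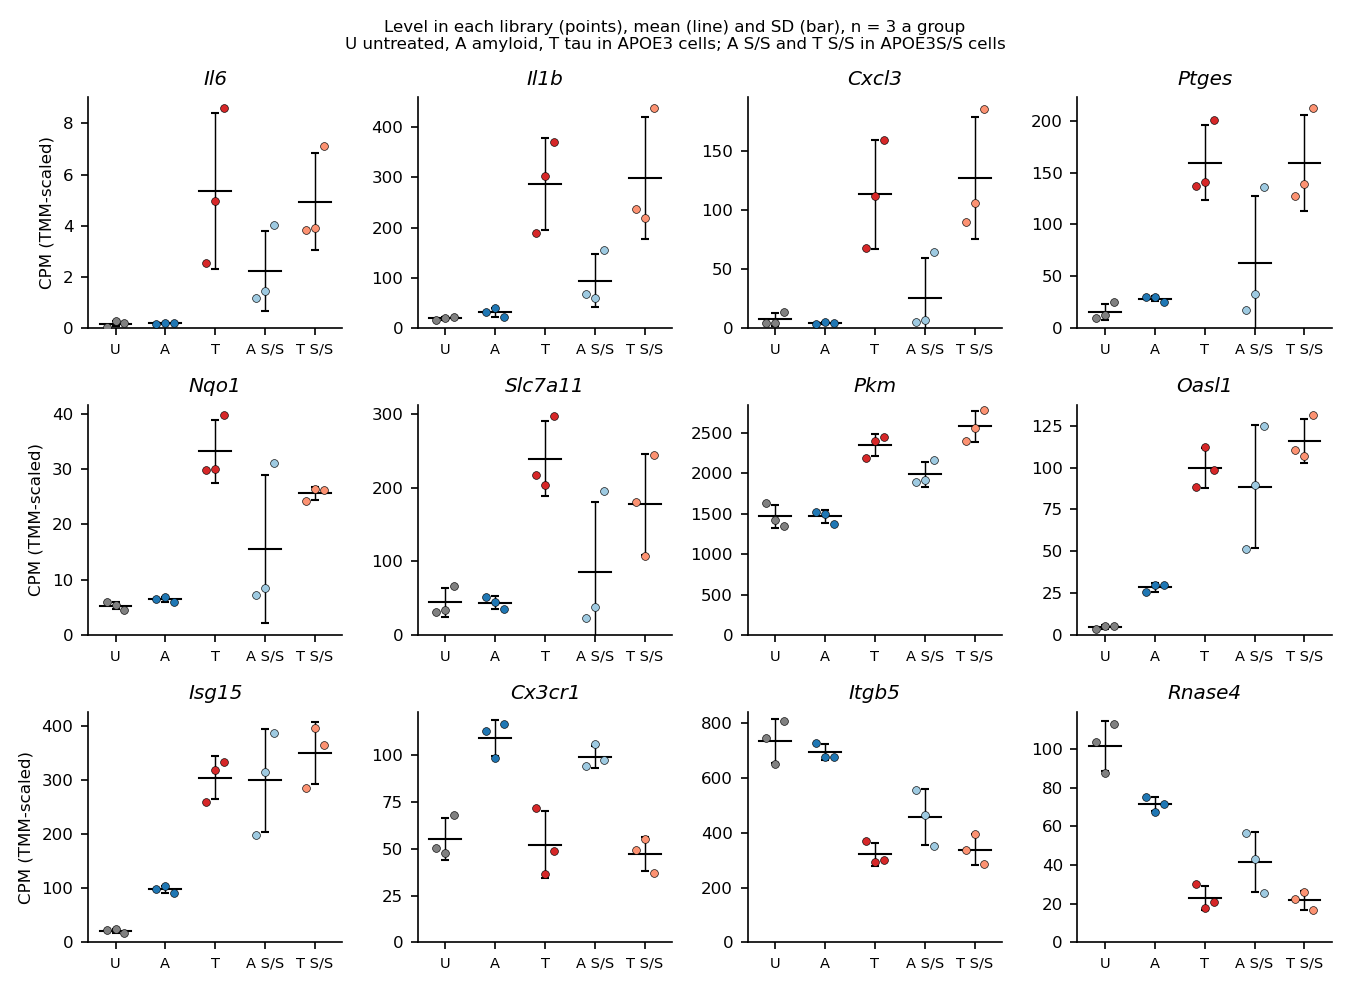
Levels of 12 genes in each library on a linear CPM axis from 0, for 3 APOE3 groups (U untreated, A amyloid, T tau) and 2 APOE3S/S groups (A S/S, T S/S). Points are libraries in order of title number, lines group means and bars SD (n = 3). Il6, Il1b, Cxcl3, Ptges, Nqo1, Slc7a11, Pkm, Oasl1 and Isg15 lie nearer to the untreated than to the tau level with amyloid. In Oasl1, Isg15, Il1b and Nqo1, among others, the amyloid mean is between the other 2. Cx3cr1 is highest with amyloid, and Itgb5 and Rnase4 are lowest with tau among the APOE3 groups. The third A S/S point is APOE3S/S amyloid library 9.

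In interferon-stimulated genes amyloid cells had intermediate levels and tau cells the highest levels. This order of group means was not particular to them. Of the 581 genes called higher with tau, 372 (64.0%) had an amyloid mean between those of untreated and tau cells. Over all genes tested the share was 47.9%. All 68 listed effectors were tested, all 68 had a positive log2 fold change of tau over amyloid (median 0.753), and in all 68 each tau library was above each amyloid library, against 21.5% of all genes tested. Against untreated cells the medians were 2.128 with tau (68 called higher) and 1.424 with amyloid (27 called higher). In the fit of all 17 libraries, however, only Oasl1, Slfn4 and Apol9b were called higher with tau than with amyloid. That number depended on the libraries and settings of the fit. All 68 were called in a fit of the 6 compared libraries alone, 58 in a fit of the 9 APOE3 libraries and 13 without APOE3S/S amyloid library 9. With DESeq2 16 were called, with no low-count filter 59, and with any 1 of the 6 libraries left out of the 17 none. The median lay between 0.664 and 0.805 in all of these fits. The SD of these genes within a group, on the log2(CPM + 1) scale, had a median of 0.085 in the amyloid and 0.112 in the tau libraries. It was 0.297 in the untreated and 0.357 in the APOE3S/S amyloid libraries, which are also part of the shared fit. The part that this spread has in the number of calls was not tested.

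Single members show the steps. Isg15, a ubiquitin-like modifier, was at 22.3, 25.2 and 18.0 CPM in untreated cells, 98.0, 105 and 91.4 CPM with amyloid and 260.0, 319.8 and 335 CPM with tau (1.63 ± 0.48, adjusted p = 0.0511 for tau against amyloid, not called). Oasl1, of the antiviral oligoadenylate synthetase family, was at 3.42, 5.45 and 5.50, then 25.5, 30.1 and 29.9, then 88.7, 112 and 98.5 CPM (1.81 ± 0.53, adjusted p = 0.0486). Slfn4, a myeloid Schlafen gene, was at 9.61, 12.0 and 11.5 CPM with amyloid and 54.1, 82.6 and 55.2 CPM with tau (2.54 ± 0.68, adjusted p = 0.0362). Apart from the size of the step these genes had the same order of groups. The difference was smallest for Usp25 (0.18 ± 0.15), Ly6e (0.20 ± 0.23) and Trim25 (0.22 ± 0.11), and Oas2, an antiviral enzyme well above its untreated level of 51.3 ± 12.5 CPM in both groups, was at 175 ± 13.1 CPM with amyloid and 218 ± 20.9 CPM with tau (SD, n = 3; 0.32 ± 0.31, adjusted p = 0.599).

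Above the effectors, in interferon signalling, 5 of 16 members were higher with tau (Jak2, Irf5, Socs1, Socs3, Usp18), Irf8 was lower and the median was 0.503. Of these, Socs1, Socs3 and Usp18 are feedback genes. Without 1 of the 6 libraries 0 to 2 members were called higher and none lower, with a median of 0.442 to 0.529. The 6 compared libraries alone gave 11 members called higher and 1 lower. Socs3 was at 39.6, 45.9 and 42.0 CPM with amyloid and 81.2, 125 and 121 CPM with tau (1.36 ± 0.28, adjusted p = 0.0132). Socs1 was at 7.35, 9.03 and 6.41 and 25.9, 33.7 and 31.8 CPM (2.00 ± 0.45, adjusted p = 0.0192). Usp18, which removes Isg15 and dampens the receptor, was at 73.6, 74.5 and 71.7 and 169, 187 and 186 CPM (1.30 ± 0.35, adjusted p = 0.0354). Each of the 3 was ordered untreated, amyloid, tau without overlap. The transcription factor Irf7 (128, 155 and 160.0, then 582, 646 and 520.5, then 1051, 1307 and 1163 CPM; 1.01 ± 0.40, adjusted p = 0.136) was not called between the agents. Among the interferon genes and receptors, none of 6 tested was called (median 0.023). Ifnb1 had no count in the untreated libraries, 4, 7 and 1 counts with amyloid and 4, 9 and 13 counts with tau (1.24 ± 0.74, adjusted p = 0.346), groups that overlap. Of 16 tested genes of cytosolic DNA and RNA sensing none was called higher and 1 was lower (median 0.41). This count too moved with the fit, with 9 called higher in the 6 compared libraries alone and 8 in the 9 APOE3 libraries or with no low-count filter. The cGAS gene, listed as Mb21d1, was at 10.2, 16.1 and 14.5 CPM in untreated cells, 22.9, 22.2 and 23.1 CPM with amyloid and 34.5, 38.4 and 33.0 CPM with tau (0.63 ± 0.22, adjusted p = 0.0926). That of STING, listed as Tmem173, was at 60.3, 66.0 and 61.7 and 75.5, 83.4 and 78.9 CPM (0.34 ± 0.14, adjusted p = 0.151). In both genes the tau libraries were above the amyloid libraries, but neither passed. The member that was lower is Enpp1, which breaks down the cGAS product cGAMP outside the cell, at 49.9, 50.4 and 45.7 CPM in untreated cells, 33.2, 32.6 and 37.5 CPM with amyloid and 11.5, 12.6 and 9.46 CPM with tau (-1.61 ± 0.30, adjusted p = 0.00991).

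Estimates of MHC class I genes were above 0 throughout. Of 24 tested members 4 were called higher (H2-Q7, Tapbpl, Psmb8 and Psme2), none lower, and all 24 had positive fold changes (median 0.567). Class I genes have near-identical copies whose reads can be split in counting, so single members such as H2-Q7 are uncertain. Psme2, a proteasome activator subunit, was at 75.2, 103 and 69.6 CPM with amyloid and 169, 209 and 255 CPM with tau (1.35 ± 0.35, adjusted p = 0.0333). Tapbpl, a peptide editor, was at 40.8, 40.9 and 33.5 and 64.9, 70.1 and 70.6 CPM (0.83 ± 0.21, adjusted p = 0.028). As for the interferon-stimulated genes, the count moved with the libraries in the fit, to 22 of 24 with the 6 compared libraries alone and to 0 or 1 without any 1 of them. In the class II list 3 of 11 members were higher, and 0 or 1 when any 1 of the 6 compared libraries was left out. H2-Ab1 was at 0.429, 0.568 and 0.801 CPM with amyloid and 2.89, 3.22 and 4.46 CPM with tau (2.55 ± 0.67, adjusted p = 0.0326). The others were the invariant chain Cd74 (0.74 ± 0.20, adjusted p = 0.0381) and the co-stimulator Cd86 (0.42 ± 0.10, adjusted p = 0.0253). H2-Ab1 remained at a few CPM, while Cd74 was at 27.9, 30.2 and 28.3 CPM with amyloid and 42.5, 54.1 and 47.5 CPM with tau. Of 17 complement genes 3 were higher and 1 lower (median -0.014), against 4.11 and 3.2% of all genes. None was called higher when any 1 of the compared libraries was left out. Cfb, of the alternative pathway, was at 2.17, 2.23 and 4.88 CPM in untreated cells, 15.0, 13.1 and 11.6 CPM with amyloid and 52.1, 54.5 and 56.6 CPM with tau (2.04 ± 0.54, adjusted p = 0.0354). C1rl, a C1r-like protease, was higher by 1.17 ± 0.31 (adjusted p = 0.0354), and the receptor C5ar2 was lower (-0.91 ± 0.21, adjusted p = 0.0213).

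NRF2 targets, antioxidant and iron genes were called higher with tau more often than the 4.11% of all genes. Of 25 members 19 were higher with tau and 1, the iron exporter Slc40a1, was lower, with a median of 0.75. Here amyloid left no mark that passed the test: its median against untreated cells was -0.087 with no call in either direction, and that of tau was 0.762 with 15 higher and 1 lower. Nqo1 (chr8:107388225-107403206), a quinone reductase and textbook NRF2 target, was at 5.93, 5.45 and 4.63 CPM in untreated cells, 6.49, 6.92 and 5.98 CPM with amyloid and 29.9, 30.0 and 39.8 CPM with tau. Amyloid libraries lay just above the untreated ones and the tau libraries 5.12-fold above amyloid (2.36 ± 0.39, adjusted p = 0.00586). Slc7a11, the cystine importer for glutathione synthesis, was at 51.8, 45.5 and 35.3 CPM with amyloid and 217, 204 and 297 CPM with tau (2.44 ± 0.58, adjusted p = 0.0227). Gsr, which regenerates glutathione, was at 125, 135 and 124 and 226, 246 and 253 CPM (0.92 ± 0.16, adjusted p = 0.00779). Prdx1, an abundant peroxiredoxin, was at 1374, 1373 and 1247 and 3144, 3159 and 4473 CPM (1.43 ± 0.26, adjusted p = 0.00956). Hmox1, the heme-degrading enzyme, was at 519, 404 and 627 CPM in untreated cells, 365, 315 and 334 CPM with amyloid and 512, 512 and 603 CPM with tau. Tau was above amyloid (0.68 ± 0.18, adjusted p = 0.0368), but the difference of tau from untreated cells did not pass (0.07 ± 0.18, adjusted p = 0.842). For iron, the storage subunit Fth1 was higher (0.66 ± 0.18, adjusted p = 0.037), as was the uptake receptor Tfrc (0.57 ± 0.12, adjusted p = 0.0163). Slc40a1 was at 99.0, 118 and 113 CPM with amyloid and 58.7, 60.8 and 51.6 CPM with tau (-0.95 ± 0.22, adjusted p = 0.0223). The transcript of NRF2 itself, Nfe2l2, did not pass (0.12 ± 0.09, adjusted p = 0.505). Leaving out 1 library left 2 to 12 members called higher, with a median of 0.668 to 0.795. Nqo1 and Gsr kept their calls without any 1 of them.

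Glycolytic genes were also higher with tau. Of 24 tested members 10 were higher with tau (Slc2a1, Pfkp, Aldoa, Pgk1, Pgam1, Eno1, Pkm, Ldha, Slc16a3 and Hif1a) and 1 was lower (Ndrg1), with a median of 0.312. The medians against untreated cells were 0.281 for tau and -0.017 for amyloid, with no amyloid call. The called members span the pathway from glucose import to lactate export. The glucose transporter Slc2a1 was at 57.2, 57.0 and 48.3 CPM with amyloid and 92.2, 105 and 123 CPM with tau (0.98 ± 0.15, adjusted p = 0.00443). The pyruvate kinase Pkm was at 1522, 1500.2 and 1379 and 2195, 2404 and 2449 CPM (0.68 ± 0.10, adjusted p = 0.00461). The kinase Pgk1 (0.79 ± 0.12, adjusted p = 0.00532) and the lactate exporter Slc16a3 (0.64 ± 0.10, adjusted p = 0.00566) were higher too. The named 4 kept their calls without any 1 of the 6 libraries, in which 4 to 7 members of the list were called. The first kinase of the pathway, Hk2, did not pass (0.24 ± 0.15, adjusted p = 0.36). Of 27 nuclear-encoded respiratory chain genes 3 were higher (Cycs, Atp5b and Atp5o), against 4.11% of all genes, with a median of 0.205. The electron carrier Cycs was at 40.8, 39.5 and 37.9 CPM with amyloid and 69.3, 69.8 and 84.5 CPM with tau (0.92 ± 0.14, adjusted p = 0.00443). None of 14 mitochondrial transcripts was called (median -0.059). In the unfolded protein and integrated stress response Atf3 was lower and the median was 0.321. Of its 25 genes 5 were higher, against 4.11% of all genes, and 0 or 1 without 1 of the 6 libraries. Among them were the disulfide isomerase Pdia4 at 0.65 ± 0.14 (adjusted p = 0.0147), Atf4, the main factor of the integrated response, at 0.53 ± 0.14 (adjusted p = 0.0313) and Creld2 at 0.54 ± 0.14 (adjusted p = 0.0356). Among 14 heat shock chaperones 2 were higher, against 4.11% of all genes. They were Hspa1b, which has a near-identical copy (1.51 ± 0.39, adjusted p = 0.0301), and Hsph1 (0.42 ± 0.10, adjusted p = 0.028).

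**Figure D3:**
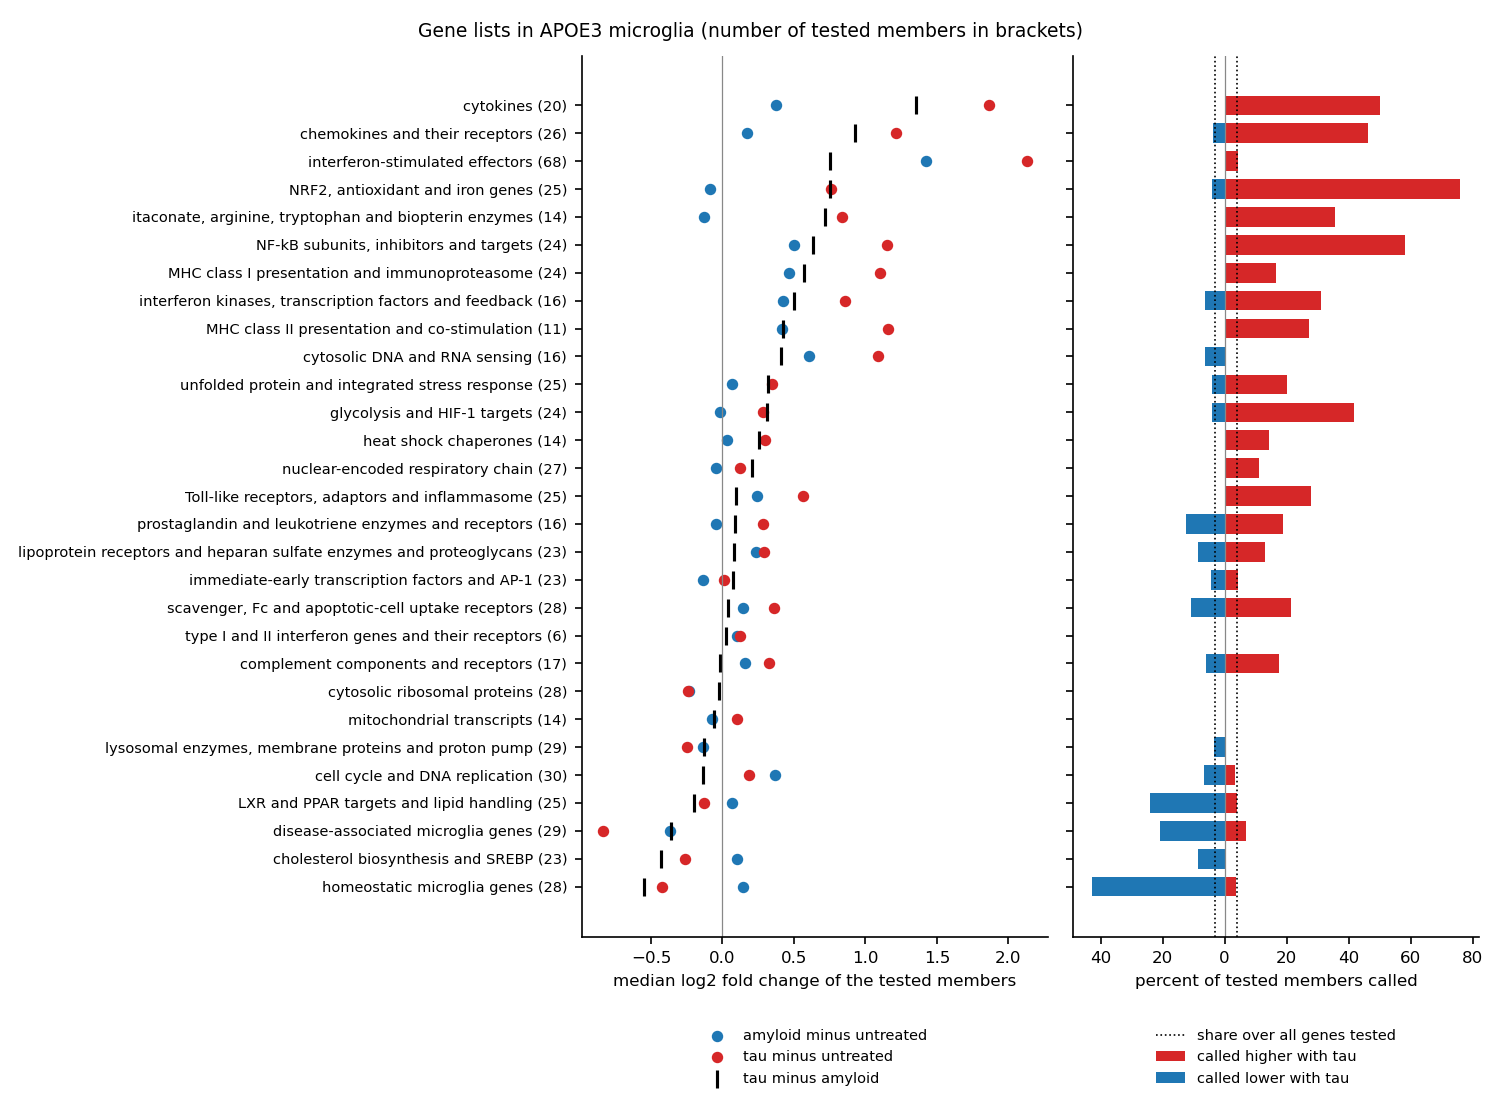
The left panel gives, for 29 gene lists, the median log2 fold change of the tested members for amyloid minus untreated (blue), tau minus untreated (red) and tau minus amyloid (black tick), the first 2 sharing the untreated libraries. The right panel gives the percent of tested members called between tau and amyloid, higher to the right and lower to the left, with dotted lines at the share over all genes, 4.11 and 3.2%. Cytokines, chemokines, NF-kB and NRF2 lists have the longest bars to the right and homeostatic genes the longest to the left, while interferon-stimulated genes have a median of 0.753 and 3 calls of 68.

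**Figure D4:**
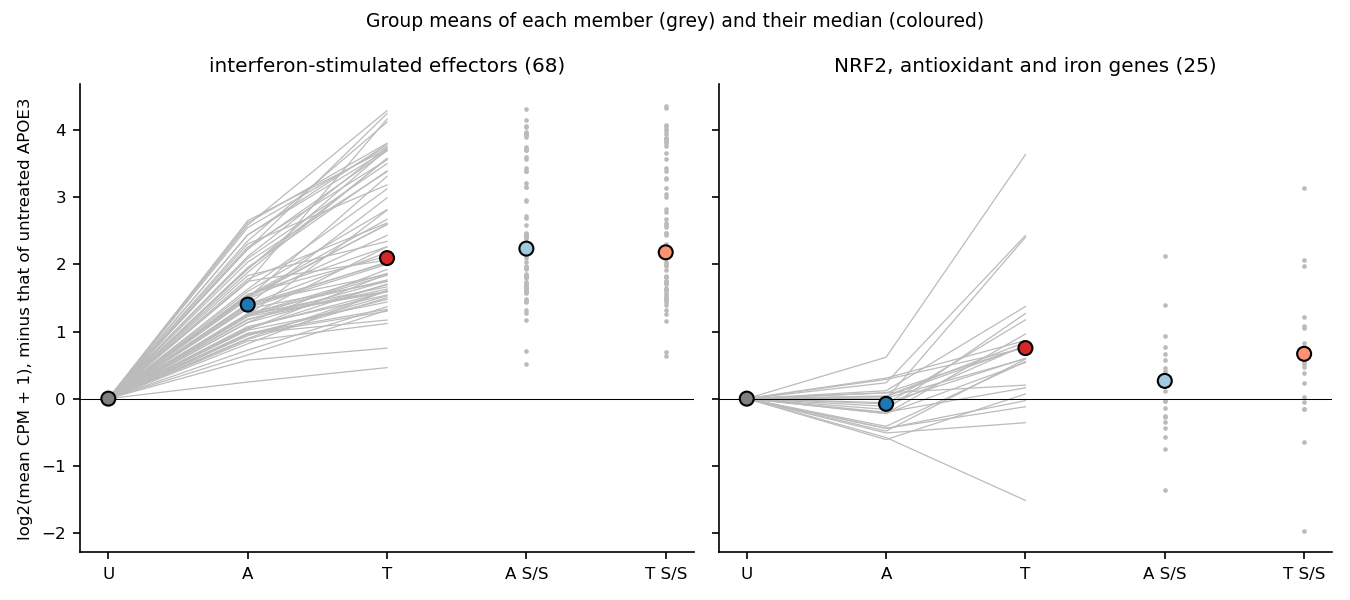
Each grey line or point is a member's group mean on the log2(CPM + 1) scale minus its untreated APOE3 mean, and coloured points are the medians over the members. Interferon-stimulated genes (68, left) have medians of 1.40 with amyloid and 2.10 with tau in APOE3 cells, and 2.24 and 2.18 in APOE3S/S cells. NRF2, antioxidant and iron genes (25, right) have medians of -0.08 and 0.75 in APOE3 cells, and 0.26 and 0.67 in APOE3S/S cells.

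Genes of resting microglia were the main group that was lower with tau than with amyloid. Of 28 tested homeostatic genes 12 were lower (among them Cx3cr1, Gpr34, Fcrls, Tgfbr1, Tgfbr2, Mef2a, Mef2c, Entpd1, Slco2b1, Rnase4 and Rasgrp3) and 1, the ADP receptor P2ry13, was higher, with a median of -0.547. Against untreated cells the median was -0.426 for tau, with calls in both directions, 6 members higher and 10 lower. The shares over all genes in that comparison were 12.8 and 8.8%. For amyloid the median was 0.142, with 2 members called higher (P2ry12 and Cx3cr1) and none lower. Cx3cr1, the receptor for the neuronal chemokine fractalkine, was at 50.3, 47.7 and 68.0 CPM in untreated cells, 113, 98.3 and 116 CPM with amyloid and 71.5, 36.5 and 48.6 CPM with tau. The difference between the agents (-1.07 ± 0.21, adjusted p = 0.0106) therefore came with a higher level in amyloid cells (amyloid minus untreated 0.98 ± 0.21, adjusted p = 0.0471) and with overlapping levels in tau and untreated cells (tau minus untreated -0.08 ± 0.21, adjusted p = 0.828). Rnase4, a secreted ribonuclease, was at 75.0, 67.7 and 71.5 and 30.2, 18.1 and 20.8 CPM (-1.63 ± 0.27, adjusted p = 0.00586) and kept its call without any 1 library. Gpr34, a lysophosphatidylserine receptor, was at 9.71, 10.4 and 10.8 and 3.17, 2.93 and 2.46 CPM (-1.84 ± 0.35, adjusted p = 0.00991). The transcription factor Mef2a was at 286, 275 and 294 and 202, 157 and 156 CPM (-0.73 ± 0.13, adjusted p = 0.00768). In all of these the tau libraries were below every amyloid library, as in 19.7% of all genes tested. Not every marker of the resting state was lower. P2ry12 had 24.2, 23.6 and 23.5 CPM with amyloid and 26.1, 25.5 and 27.8 CPM with tau (0.15 ± 0.19, adjusted p = 0.685). Csf1r (0.16 ± 0.12, adjusted p = 0.458) and Tmem119 (1.06 ± 0.37, adjusted p = 0.0922) did not pass either. P2ry13 was at 20.1, 33.6 and 26.7, then 49.6, 54.6 and 49.5, then 90.1, 100.2 and 101 CPM (0.92 ± 0.25, adjusted p = 0.035). Leaving out 1 library left 1 to 12 members called lower, with a median of -0.642 to -0.464.

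Genes that define disease-associated microglia, the state seen around amyloid plaques, were not higher as a group with either agent. Of 29 members 6 were lower with tau than with amyloid (Ank, Timp2, Cadm1, Gpx3, Dkk2 and Atp6v0d2) and 2 higher (Cst7 and Ch25h), with a median of -0.362. The median against untreated cells was -0.836 with tau (3 higher, 20 lower) and -0.365 with amyloid (no call). The count of lower members was 20 in the 6 compared libraries alone, 12 in the 9 APOE3 libraries and 0 to 2 without 1 of the 6 libraries (0 without tau library 6). Trem2, the lipid receptor that this state depends on, was at 1281, 1002 and 961 CPM in untreated cells, 805, 718 and 739 CPM with amyloid and 448, 387 and 451 CPM with tau (-0.82 ± 0.24, adjusted p = 0.0535, not called although the groups do not overlap). Spp1, osteopontin, was at 5562, 4080.0 and 4069 CPM with amyloid and 2683, 2257 and 2459 CPM with tau (-0.89 ± 0.35, adjusted p = 0.134). Gpnmb, a glycoprotein of lipid-laden macrophages, was at 9418, 8194 and 8838 and 6103, 6154 and 5716 CPM (-0.56 ± 0.17, adjusted p = 0.059). Neither passed, and both were below their untreated means of 8752 and 11763 CPM in all 6 libraries. Ank, a pyrophosphate transporter, was at 89.8, 86.9 and 87.2 and 53.5, 56.5 and 49.4 CPM (-0.73 ± 0.12, adjusted p = 0.00628). Timp2, a protease inhibitor, was at 655, 648 and 646 and 423, 422 and 377 CPM (-0.67 ± 0.15, adjusted p = 0.0169). Ch25h, which makes the antiviral sterol 25-hydroxycholesterol, was higher, at 5.69, 4.08 and 4.13 CPM with amyloid and 17.3, 21.3 and 22.2 CPM with tau (2.12 ± 0.45, adjusted p = 0.0152). The mouse Apoe row was at 14.8, 13.7 and 16.0 CPM with amyloid and 11.1, 11.7 and 7.93 CPM with tau (-0.52 ± 0.24, adjusted p = 0.206). The labels do not say whether transcripts of the APOE3 allele map to that row.

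Of 25 LXR and PPAR targets and lipid handling genes 6 were lower with tau (Mylip, Pparg, Rxra, Soat1, Fasn and Acaca) and 1 was higher (Acsl1), with a median of -0.198. Without 1 of the 6 libraries 0 to 3 were called lower, and none without amyloid library 8, amyloid library 9, tau library 5 or tau library 6. Pparg, a lipid-sensing nuclear receptor, was at 38.3, 41.2 and 45.5 CPM with amyloid and 19.1, 13.9 and 16.1 CPM with tau (-1.35 ± 0.32, adjusted p = 0.0227). Its partner Rxra was at 319.6, 319.7 and 321 and 232, 229.7 and 210.1 CPM (-0.52 ± 0.12, adjusted p = 0.0191). Acaca, the first enzyme of fatty acid synthesis, was at 95.8, 109 and 113 and 72.7, 69.6 and 65.3 CPM (-0.62 ± 0.12, adjusted p = 0.0128). Acsl1, which activates long-chain fatty acids, went the other way, from 88.3, 89.5 and 88.3 to 311, 334 and 394 CPM (1.96 ± 0.46, adjusted p = 0.0216). Lpl (-0.26 ± 0.18, adjusted p = 0.443) and Cd36 (0.02 ± 0.22, adjusted p = 0.977) did not pass between the agents. Both were lower with tau than in untreated cells (-0.85 ± 0.19, adjusted p = 0.00347, and -1.12 ± 0.22, adjusted p = 0.00164). In cholesterol synthesis 22 of 23 members had negative fold changes (median -0.427), of which Nsdhl (-0.40 ± 0.12, adjusted p = 0.0492) and Dhcr7 (-0.40 ± 0.11, adjusted p = 0.0386) were called. The count of called members was 14 in a fit of the 6 compared libraries alone and 0 without any 1 library. Over 29 lysosomal genes the median was -0.132 and 1 member was called lower, a share near the 3.2% of all genes. It was the mannosidase Man2b1, at 1321, 1374 and 1354 CPM with amyloid and 1039.7, 1087 and 908 CPM with tau (-0.42 ± 0.09, adjusted p = 0.0202).

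Receptors for uptake were called in both directions. Of 28 scavenger, Fc and apoptotic-cell uptake receptors 6 were higher with tau (Msr1, Fpr1, Fpr2, Clec4a1, Clec4d and Clec4e) and 3 lower (Colec12, Itgav and Itgb5), with a median of 0.039. Leaving out 1 of the 6 libraries left 0 to 5 called higher and 1 lower. None was called higher without amyloid library 7, 8 or 9 or tau library 6. Clec4e, the lectin Mincle, which senses mycobacterial glycolipid and dead cells, was at 63.2, 68.6 and 68.5 CPM in untreated cells, 173, 149.9 and 138 CPM with amyloid and 643, 701 and 1033 CPM with tau (2.37 ± 0.51, adjusted p = 0.0154). Itgb5, an integrin subunit that binds apoptotic cells together with Itgav, was at 727, 677 and 675 CPM with amyloid, as in untreated cells, and 369, 294 and 299 CPM with tau (-1.11 ± 0.18, adjusted p = 0.00539), and kept its call without any 1 library. Heparan sulfate proteoglycans bind APOE and tau at the cell surface. Among 23 tested lipoprotein receptor and heparan sulfate genes 3 were called higher, all of them proteoglycans, and 2 lower. That compares with 4.11 and 3.2% of all genes. Without 1 of the 6 libraries 1 to 3 were called higher and 0 or 1 lower. Sdc4 was at 34.3, 33.3 and 29.5 and 49.4, 54.9 and 58.8 CPM (0.75 ± 0.13, adjusted p = 0.00617). Sdc1 was at 41.1, 40.3 and 39.1 and 120.3, 130.3 and 141 CPM (1.70 ± 0.37, adjusted p = 0.0173), and Gpc1 at 4.51, 5.06 and 3.45 and 11.8, 17.0 and 19.1 CPM (1.87 ± 0.36, adjusted p = 0.0101). In each of the 3 every tau library was above every amyloid library, as in 21.5% of all genes tested. Among the enzymes that shape the sugar chains, Hs2st1 (-0.31 ± 0.09, adjusted p = 0.049) and Sulf2 (-0.72 ± 0.16, adjusted p = 0.0188) were lower. The median over the 23 lipoprotein receptor and heparan sulfate genes was 0.083.

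Growth and early response genes were called at shares near those of all genes (4.11% higher, 3.2% lower). Of 30 cell cycle genes 1 was higher (E2f1, 0.40 ± 0.10, adjusted p = 0.0241) and 2 lower (Plk1, -0.92 ± 0.26, adjusted p = 0.0415, and Cenpa, -0.97 ± 0.22, adjusted p = 0.0207), with a median of -0.137. Of 23 immediate-early genes Ier3 was higher, at 24.7, 28.5 and 27.9 CPM with amyloid and 55.9, 88.4 and 86.5 CPM with tau (1.51 ± 0.19, adjusted p = 0.00286). Egr1 was lower, at 24.5, 20.7 and 19.5 and 7.64, 12.4 and 8.73 CPM (-1.17 ± 0.25, adjusted p = 0.0146). None of 28 ribosomal protein genes was called (median -0.027). Of the marker lists of other cells, 5 genes were called, Slc1a2 and Vcan higher and Cspg4, F13a1 and Folr2 lower, and none of the 12 general microglia and macrophage markers (median 0.057).

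To ask whether the contrast was particular to APOE3, it was set beside the same contrast in APOE3S/S cells, which shares no library with it. One APOE3S/S amyloid library, number 9, stood apart from the other 2 and lay near the tau libraries in genes such as Nqo1 and Cxcl3. Whether its label is right or a sample was exchanged cannot be told apart here, and each value of the APOE3S/S contrast is subject to that doubt. Nqo1 was at 7.24, 8.55 and 31.0 CPM in the APOE3S/S amyloid libraries and 24.2, 26.4 and 26.2 CPM in the APOE3S/S tau libraries. Cxcl3 was at 5.18, 7.08 and 64.6 and 89.3, 106 and 185 CPM. In Ccl7 library 8 lay among the tau libraries as well (14.4, 37.4 and 54.3 CPM, against 30.85, 28.5 and 48.8 CPM with tau). Pairs of these amyloid libraries differed by 19.8 (7 and 8), 32.1 (8 and 9) and 73.8 (7 and 9) times their counting variance. In the fit of 17 libraries only 10 genes (0.0707%) were higher and 11 (0.0778%) lower with tau than with amyloid in APOE3S/S cells. Without amyloid library 9, 452 were called. Of the 1034 genes called in APOE3 cells, 956 (92.5%) had the same sign in APOE3S/S cells, against 61.9% of all genes tested. No gene was called for a difference between the genotypes in the interaction term of edgeR's quasi-likelihood test, with 1030 genes at an unadjusted p under 0.05. DESeq2 called none either, with 1048. No gene's contrast is thus shown to be particular to APOE3. List medians in the 2 genotypes are given side by side, without a test of their difference. Interferon-stimulated genes had a median of 0.753 in APOE3 and 0.03 in APOE3S/S cells (0.147 without library 9), with Isg15 at 198, 315 and 387 CPM in the APOE3S/S amyloid and 286, 398 and 366 CPM in the APOE3S/S tau libraries. The NRF2 and iron list had medians of 0.75 and 0.435 (0.714 without library 9), the NF-kB list 0.635 and 0.396 (0.634), the cytokines 1.355 and 0.486 (0.673), and the homeostatic list -0.547 and -0.28 (-0.263). Cholesterol synthesis genes had medians of opposite sign, -0.427 in APOE3 and 0.291 in APOE3S/S cells (0.189 without library 9), where 22 of 23 had positive fold changes and none was called. Il1b was at 68.5, 59.3 and 155 CPM in the APOE3S/S amyloid and 236, 220.0 and 438 CPM in the APOE3S/S tau libraries (1.66 ± 0.39, adjusted p = 0.139), with an interaction of 1.53 ± 0.55 (adjusted p = 0.657). For Oasl1 the interaction was 1.42 ± 0.72 (adjusted p = 0.677). Cx3cr1 differed between the agents by -1.07 ± 0.21 in APOE3S/S cells (adjusted p = 0.058), close to its APOE3 estimate of -1.07. Ier3 (1.12 ± 0.18, adjusted p = 0.0258), Cd14 (1.14 ± 0.19, adjusted p = 0.0258), Arg2 (1.02 ± 0.18, adjusted p = 0.0258) and Sdc4 (0.71 ± 0.12, adjusted p = 0.0268) were the named genes called in APOE3S/S cells too.

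The number of calls depended on single libraries. Without amyloid libraries 7, 8 and 9 in turn, 92, 108 and 67 genes were called higher and 110, 110 and 74 lower. Without tau library 4 the counts were 336 and 236, without tau library 5 they were 117 and 75, and without tau library 6 they were 50 and 11. In these fits a group of 2 libraries is assumed to vary like the others. In all, 60 of the 1034 genes (49 higher, 11 lower) were called without any 1 of the 6 libraries. Of the 96 called genes picked by the naming rule 19 were, and all 96 kept their sign under every alternative. The 19 are those said above to have kept their calls, except Il1rn and Slc16a3, which lie outside the rule, together with Slc6a12, Car4, Upp1, Plxna4, Arg2, Sdc4, Cycs and Ier3. Without tau library 6, 77 of the 96 lost the call, and without amyloid library 9, 65 did. The 6 compared libraries have a smaller spread, and a fit of them alone called 1969 genes higher and 1675 lower. The part of the spread in this was not tested. Scaling by library size in place of TMM moved the median of all genes from -0.004 to -0.093 and the split of calls from 56.2% to 35.9% higher.

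**Figure D5:**
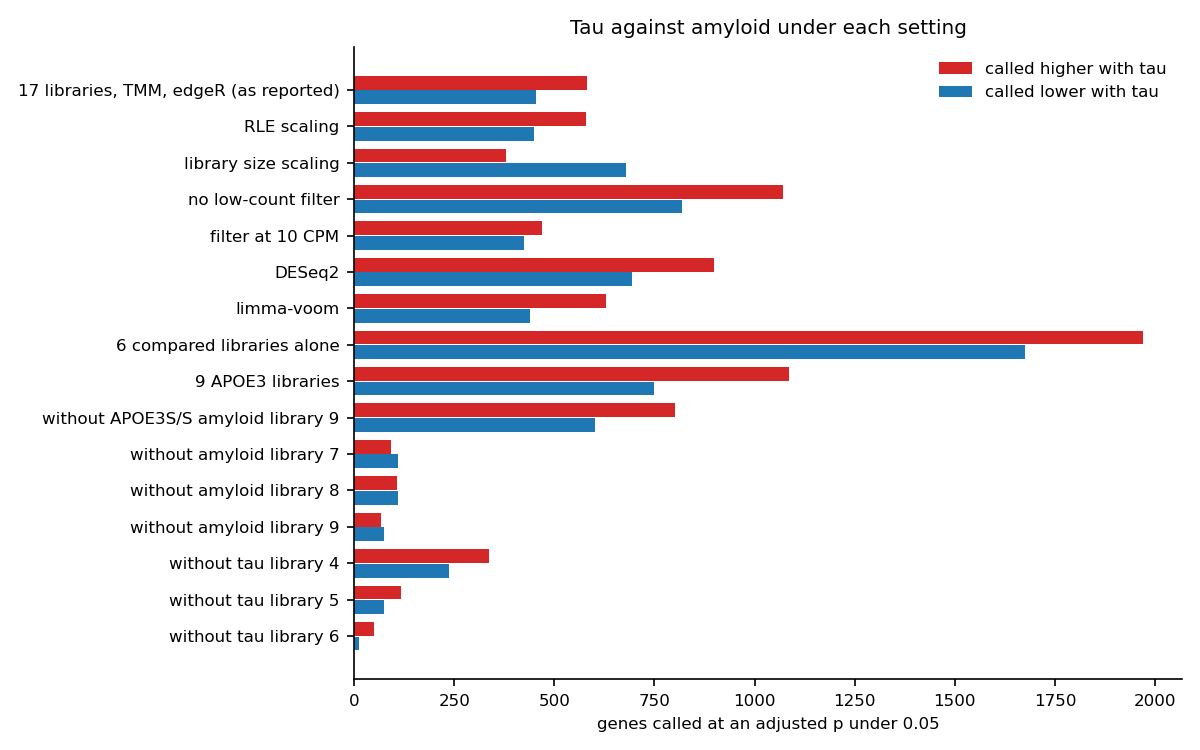
Bars give the number of genes called higher (red) and lower (blue) with tau than with amyloid at an adjusted p under 0.05 under each setting, from 50 and 11 without tau library 6 to 1969 and 1675 in the 6 compared libraries alone. The top pair, 581 and 453, is the fit reported.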

How the data were processed

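The libraries were made with a 3′ kit (QuantSeq 3′ mRNA-Seq FWD) from column-purified RNA, per the labels' protocols. The authors deposited raw read counts per gene symbol; the submitters' processing notes name GRCm38 and DESeq2 1.38.3, and no source here names the aligner or annotation. Rows with no name or no number, exact repeats and ambiguous date-like symbols were left out. edgeR 4.0.16 (quasi-likelihood F test, TMM scaling, filterByExpr; R 4.3.3) was fitted to all 17 libraries of the SAN titles with 6 group terms and 11 residual degrees of freedom, and p-values were adjusted by Benjamini-Hochberg over 14136 genes. Errors after ± on log2 fold changes are standard errors worked back from each fold change and the F statistic of its test. Those on CPM are SD. DESeq2 1.42.0, limma 3.58.1 (voom), other scalings, filters and library sets were alternatives. The fit was tested on simulated data.

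The comparison and the 36 gene lists were chosen with earlier results of these data known, so lists have counts and medians only. Genes named by rule are the 12 highest and 12 lowest called genes of at least 5 CPM, the 3 called members of each list with the smallest p, and a preset group; no gene was called for the interaction, so none was named for it. A called gene that the rule picks is not reported here. Other list members are examples chosen after their values were seen. Coordinates are from GENCODE M21 (GRCm38), matched by symbol. Libraries of the other titles were not used.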

Additional observations from a re-analysis of the deposited data

How the results depend on the processing

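Against 581 genes higher and 453 lower with tau than with amyloid, 380 were higher and 678 lower with library-size scaling, 1072 and 819 were called with no low-count filter, 898 and 694 with DESeq2, 1969 and 1675 in the 6 compared libraries alone, and 1087 and 748 in the 9 APOE3 libraries. Leaving out 1 library gave 50 to 336 higher and 11 to 236 lower. Genes called beyond 2-fold (386) numbered 646 with no filter, 180 at 10 CPM, 627 in the 6 libraries alone and 39 to 272 without 1 library. Amyloid against untreated cells (118 calls) gave 653 with DESeq2, 930 in 9 libraries and 0 to 62 without 1 library, where the fits with no call still held 1482 to 2827 genes at an unadjusted p under 0.05 in edgeR. The APOE3S/S contrast (21 calls) gave 159 with DESeq2, 452 without amyloid library 9 and 0 without tau library 6 (850 at an unadjusted p under 0.05), and tau against untreated cells (3059) gave 2229 to 2784 without 1 library. Cd36, not called (log2 fold change 0.02), was at -0.074 with library-size scaling and at -0.111 to 0.152 without 1 library, below 0 without amyloid library 8, amyloid library 9 or tau library 6. The cause of these changes was not tested. Named genes under the alternatives were on the same side of the threshold in 1198 cases, past it only there in 25 and no longer past it in 346.

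Tau and amyloid titles share no number, so no paired analysis of that contrast was possible. With title number as a replicate block across genotypes the interaction had 0 calls in edgeR (1072 at an unadjusted p under 0.05), as without the block (1030); same-numbered libraries of the 2 genotypes correlated at -0.071 to 0.182 in their deviations, and 3 of 6 correlated best with their own number. Without 1 library the interaction had 0 calls, with 647 to 1465 at an unadjusted p under 0.05. Depth limits Il6, with 3 to 4 counts in each APOE3 amyloid library, and Ifnb1, with 1 to 13 counts in each of the 6 compared libraries.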

Other observations

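Outside the gene lists, other genes were called without any 1 of the 6 compared libraries, and a few with known roles are given here, chosen after their values were seen. Mmp9, a secreted gelatinase, was at 11.4 ± 0.564 CPM with amyloid and 73.7 ± 14.5 CPM with tau (SD, n = 3; log2 fold change 2.69 ± 0.41, adjusted p = 0.00443 by edgeR). Adora2b, an adenosine receptor, was at 7.83 ± 0.604 and 31.7 ± 7.67 CPM (2.01 ± 0.29, adjusted p = 0.00443), and Ednrb, an endothelin receptor, at 14.3 ± 1.25 and 49.4 ± 7.55 CPM (1.78 ± 0.30, adjusted p = 0.00628). Clec4n, the lectin Dectin-2, was at 454 ± 44.4 and 1183 ± 204 CPM (1.38 ± 0.23, adjusted p = 0.00586). Ninj1, which ruptures the plasma membrane of dying cells, was at 118 ± 9.73 and 257 ± 35.3 CPM (1.12 ± 0.15, adjusted p = 0.00286), and Slpi, a secreted protease inhibitor, at 21.3 ± 3.48 and 68.8 ± 8.52 CPM (1.69 ± 0.28, adjusted p = 0.00617). Among those lower with tau were Nlrc3, a NOD-like protein, at 30.4 ± 2.19 and 10.0 ± 0.873 CPM (-1.60 ± 0.22, adjusted p = 0.00338), the growth factor Pdgfb (-0.94 ± 0.14, adjusted p = 0.00443) and the interleukin-17 receptor subunit Il17ra (-0.58 ± 0.09, adjusted p = 0.00443). In all of these the tau and amyloid libraries did not overlap, which adds nothing to calls made on the same 6 libraries. Over all genes tested, every tau library was above every amyloid library in 21.5% and below in 19.7%.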
